A study of Arabidopsis thaliana with 6 samples.

Results

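The genes described here are 34 nuclear genes of Arabidopsis thaliana whose transcripts were lower on the herbicide norflurazon in wild type seedlings and were not regained in a gun1,gun5 double mutant grown on the same herbicide. They were selected on the measured signals themselves. Among 13367 probe sets that name a single nuclear gene, those kept had a log2(signal + 16) at least 1.2 below the control on norflurazon in wild type, in replicate 1 and in replicate 2. In addition the mutant was no more than 0.2 above wild type on norflurazon in either replicate. A further 6 named genes and all genes with symbols beginning with UGT were set aside by name, which removed none of the 34. The fall on norflurazon, the difference of the mutant and the sum of the 2 are therefore descriptions of a chosen set, with no test of their own.

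RNA from entire seedlings at the open-cotyledon stage was hybridised to ATH1 arrays, 1 array per sample and 6 in all. The groups, with 2 samples each, were gun1,gun5 with 5 µM norflurazon, wild type Col-0 with 5 µM norflurazon, and wild type Col-0 without herbicide as the control. Every group had 3 days of darkness and then 3 days of continuous white light at 23 °C, with 1.5% (w/v) sucrose in the medium. No gun1,gun5 seedlings without herbicide were analysed here, so a value in the mutant combines genotype and treatment when it is set against the control. Neither the alleles of the mutant nor separate plantings behind the replicates are given in the sources used here, and the spread between samples may be partly technical. Where 2 signals are given for a group, replicate 1 comes first.

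Norflurazon blocks carotenoid synthesis, and chloroplasts without carotenoids are bleached by light. Damaged plastids send signals to the nucleus that lower the expression of many photosynthesis genes. GUN1, a plastid pentatricopeptide repeat protein, and GUN5, a subunit of magnesium chelatase in chlorophyll synthesis, were found through mutants that keep such genes expressed on norflurazon. The signals of GUN1 and GUN5 themselves are not analysed here.

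Signals are MAS5 values on a linear scale, and each array had been scaled to the same mean, so that the means without the extreme signals lay between 99.6 and 99.9. The green tissue genes LHCB4.1, LHCB4.2 and RCA summed to 5644.0 and 5042.4 in the mutant on norflurazon, 2774.9 and 2364.3 in wild type on norflurazon, and 10006.6 and 8879.3 in the control. Of 8 listed root genes 2 had a named probe set here. EXPA7 had 51.4 and 49.5 in the mutant on norflurazon, 48.9 and 18.1 in wild type on norflurazon, and 46.7 and 56.1 in the control. AT3G01190 was lower in the mutant on norflurazon, with 50.1 and 47.6, than in wild type on norflurazon, with 87.3 and 81.5, and had 57.7 and 71.6 in the control. The guard cell gene FMA had signals of 24.4 and 23.2 in the mutant on norflurazon, 24.9 and 19.5 in wild type on norflurazon, and 40 and 37.2 in the control. An actin control gene, probed at its 3′ and 5′ ends as a sign of RNA quality, had 3′ to 5′ ratios of 7.77 and 7.99 in the mutant on norflurazon, 7.66 and 8.17 in wild type on norflurazon, and 4.82 and 4.65 in the control. A second actin pair gave ratios of 2.00 and 3.21 in the mutant on norflurazon, 1.65 and 3.63 in wild type on norflurazon, and 2.46 and 2.78 in the control. On the herbicide arrays this ratio was higher in replicate 2 than in replicate 1 in both genotypes. Wild type norflurazon replicate 1 stood apart in the 25S ribosomal RNA control probe set, with 2511.1 against at most 115.6 on the other arrays. The part of these differences in the levels of the 34 genes was not tested. In RNA of whole seedlings, fewer cells of a type and less RNA per cell cannot be told apart.

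In all 192 of the 13367 probe sets met the first condition, which is 1.44%. After 3 of these were set aside by name, 189 remained. The mutant was above the 0.2 limit in both replicates for 130 of them, and these are called regained below. The name covers a partial regain, with a median of 48.9% of the fall on the log2 scale (range 12.3% to 114.4%). Mutant on norflurazon minus control had a median of -0.94 in these 130. In 25 genes the mutant was above the limit in a single replicate, and in 34 it was above the limit in neither. Over the 189 lowered genes, mutant minus wild type on norflurazon had a median of 0.66, with quartiles of 0.23 and 0.99. On the weaker of the 2 replicate falls, AT5G18470 at -1.2033, AT4G16146 at -1.2324 and AT1G62770 at -1.2392 were just inside the limit. AT2G39980 at -1.1968, AT5G59080 at -1.1476 and AT3G17520 at -1.1432 were just outside it. On the higher of the 2 mutant differences, AT5G02230 at 0.17, AT1G78995 at 0.16 and AT3G22210 at 0.12 were just inside. Just outside were AT2G16005, AT2G23840 and AT1G62250, each at 0.21.

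**Figure D1:**
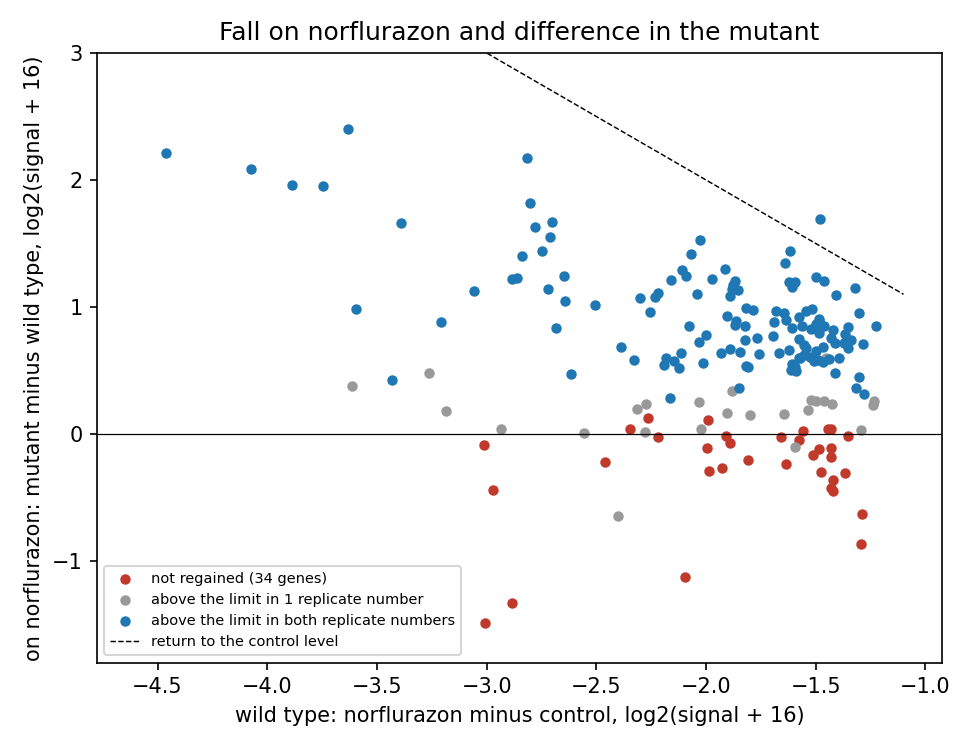
Each point is 1 of the 189 lowered genes. The x axis is norflurazon minus control in wild type and the y axis is mutant minus wild type on norflurazon, both as the mean of 2 replicates on the log2(signal + 16) scale. The 34 genes (red) lie between -1.48 and 0.12 on the y axis. They overlap on this mean with the genes above the limit in a single replicate (grey), 7 of which lie no higher than the highest of the 34, since the rule set its limit per replicate. Genes above the limit in both replicates are blue.

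Over the 34 genes the norflurazon minus control difference in wild type had a median of -1.65 (range -3.01 to -1.29), and it was at or below -2 in 9 genes. The mutant minus wild type difference on norflurazon had a median of -0.17 (range -1.48 to 0.12), and the mutant on norflurazon minus the control a median of -1.90 (range -4.49 to -1.37). As a share of the control signal, the mutant kept at most 36.5% (median 16.5%) and wild type on norflurazon at most 37.0% (median 21.5%), and the shares of the dim genes have no exact size. In all 34 the herbicide signals of both genotypes lay below both control signals. The limits of the rule, set within each replicate number, left little room for another outcome, so nothing is read from this. The families named below are background knowledge of the loci, added when the set was already known, since the gene table gives a symbol other than the locus for only 6 of the 34. The share of each family among all probe sets was not taken, so nothing is read from the family counts.

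Of the 34 genes, 4 belong to the lipid transfer protein family, small secreted proteins that bind lipids and are known from the epidermis and cuticle. Signals of AT1G62510 were 543.1 and 590.3 in the mutant on norflurazon, 780.4 and 775.3 in wild type on norflurazon, and 2324.0 and 1920.3 in the control. AT1G48750 had 129.6 and 196.4 in the mutant on norflurazon, 184.5 and 197.8 in wild type on norflurazon, and 667.3 and 588.8 in the control. AT4G33550 had 18.9 and 21.5 in the mutant on norflurazon, 29.0 and 37.5 in wild type on norflurazon, and 381.2 and 355.5 in the control. This was the deepest fall of the 4, a log2 difference of -2.97 ± 0.17 (SE), and the mutant was at 5.48% of the control. AT2G37870 had 37.9 and 38.7 in the mutant on norflurazon, 36.2 and 46.4 in wild type on norflurazon, and 209.6 and 182.3 in the control. In AT1G62510 and AT4G33550 both mutant signals were under both wild type herbicide signals, whereas in AT1G48750 and AT2G37870 the genotypes overlapped.

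Cell wall and other secreted or defence-related proteins account for 5 more genes. ECS1 encodes a cell wall protein, with 69.1 and 54.1 in the mutant on norflurazon, 224.5 and 178.2 in wild type on norflurazon, and 1628.3 and 1825.3 in the control. It had the lowest mutant minus wild type difference of the set, -1.48 ± 0.19 (SE), on top of a fall of -3.01 ± 0.19 (SE) in wild type, so that the mutant was at 3.57% of the control. AT1G62770, of the family of inhibitors of pectin methylesterase, had 40.6 and 43.8 in the mutant on norflurazon, 73.0 and 52.5 in wild type on norflurazon, and 194.1 and 194.2 in the control. The class V chitinase gene ChiC had 38.1 and 35.9 in the mutant on norflurazon, 49.5 and 55.2 in wild type on norflurazon, and 157.7 and 176.0 in the control. In these 3 the genotypes did not overlap on norflurazon and the mutant was the lower, as in 18.1% of all 13367 probe sets. The rule limited this contrast from above, so nothing is read from the count. For AT5G18470, of the mannose-binding lectin family, signals were 12.1 and 20.9 in the mutant on norflurazon, 28.6 and 39.5 in wild type on norflurazon, and 99.8 and 111.8 in the control. AT1G09750, of the aspartyl protease family, had 158.2 and 164.5 in the mutant on norflurazon, 160.0 and 166.5 in wild type on norflurazon, and 429.5 and 453.5 in the control. Here the mutant and the wild type had nearly the same level, a difference of -0.02 ± 0.15 (SE). AT5G18470 was at -0.63 ± 0.20 (SE), and there too the mutant was the lower without overlap.

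Enzymes of several families, apart from the chitinase and the protease family gene above, account for 8 genes. AT5G44440, of the family of oxidoreductases related to berberine bridge enzyme, had 1.3 and 2.3 in the mutant on norflurazon, 4.7 and 1.2 in wild type on norflurazon, and 124.1 and 148.9 in the control. Signals this close to 0 have no order between the genotypes, and the size of the fall on the log2 scale depends on the pseudocount. AT2G29290, a short-chain dehydrogenase resembling tropinone reductase, had 112.5 and 81.1 in the mutant on norflurazon, 167.5 and 76.5 in wild type on norflurazon, and 743.6 and 659.9 in the control. AT5G02540, of the short-chain dehydrogenase family too, had 24.7 and 27.7 in the mutant on norflurazon, 36.5 and 26.7 in wild type on norflurazon, and 121.9 and 116.1 in the control. In both dehydrogenase genes wild type replicate 1 was the highest of the 4 herbicide arrays. AT5G37990, of the SABATH family of methyltransferases that act on small carboxylic acids, had 8.8 and 17.7 in the mutant on norflurazon, 7.8 and 25 in wild type on norflurazon, and 103.9 and 113.6 in the control.

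Further enzymes of the set are hydrolases and a sulfurtransferase. AT5G02230, a hydrolase of the haloacid dehalogenase superfamily, had 26.3 and 41.0 in the mutant on norflurazon, 24.0 and 34.8 in wild type on norflurazon, and 235.2 and 171.1 in the control. Its mutant difference of 0.12 ± 0.23 (SE) was the highest of the 34. The lipase-like gene AT5G24210 had 14.2 and 11.1 in the mutant on norflurazon, 22.9 and 14.6 in wild type on norflurazon, and 121.1 and 109.5 in the control. AT2G03550, a carboxylesterase-like gene, had 33.4 and 20.6 in the mutant on norflurazon, 35.9 and 17.7 in wild type on norflurazon, and 106.9 and 107.7 in the control. STR18, a sulfurtransferase, had 101.8 and 150.1 in the mutant on norflurazon, 141.4 and 174.2 in wild type on norflurazon, and 408.3 and 453.8 in the control. Among these 4 the genotypes overlapped on norflurazon in AT5G02230, AT2G03550 and STR18, and AT5G24210 was lower in the mutant by a narrow gap, 14.2 against 14.6.

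A pair of genes encode proteins known from seeds. M10, a late embryogenesis abundant protein, had 0.9 and 0.8 in the mutant on norflurazon, 0.8 and 1.5 in wild type on norflurazon, and 55.1 and 73.8 in the control. AT2G25890, of the oleosin family that coats oil bodies, had 2.0 and 2.6 in the mutant on norflurazon, 1.6 and 2.1 in wild type on norflurazon, and 31.4 and 32.7 in the control. Both were dim on every herbicide array, and in the control both lay under the lower quartile of the 34 genes, 107.7. Another pair have regulatory roles. ORA47, an AP2/ERF transcription factor of jasmonate signalling, had 22 and 17.4 in the mutant on norflurazon, 25.4 and 23.4 in wild type on norflurazon, and 98 and 87.8 in the control. AT1G47400, which encodes a short peptide of the iron deficiency response, had 10.3 and 6.4 in the mutant on norflurazon, 9.2 and 8.0 in wild type on norflurazon, and 73.0 and 79.9 in the control. The seed storage and oil body genes fixed as markers were not among the named probe sets, so M10 and AT2G25890 could not be set beside them.

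For the other 13 genes no role is given here. AT5G44580 had 52.7 and 44.9 in the mutant on norflurazon, 159.6 and 135.1 in wild type on norflurazon, and 1177.0 and 1198.0 in the control. AT5G62280 had 6.0 and 1.2 in the mutant on norflurazon, 48.5 and 11.9 in wild type on norflurazon, and 168.1 and 162.8 in the control. AT4G16146 had 27.8 and 42.7 in the mutant on norflurazon, 66.1 and 87.8 in wild type on norflurazon, and 176.9 and 249.6 in the control. These 3 were the ones of this group in which the mutant lay furthest below wild type, at -1.33 ± 0.17, -1.12 ± 0.35 and -0.86 ± 0.23 (SE). ZW9 had 232.9 and 236.2 in the mutant on norflurazon, 214.3 and 273.9 in wild type on norflurazon, and 834.5 and 683.5 in the control. AT3G22210 had 239.5 and 173.2 in the mutant on norflurazon, 218.8 and 179.1 in wild type on norflurazon, and 568.3 and 566.3 in the control. AT1G80130 had 35.6 and 49.6 in the mutant on norflurazon, 55.0 and 55.7 in wild type on norflurazon, and 277.8 and 256.6 in the control. Of these 3, AT1G80130 alone had both mutant signals below both wild type signals. AT1G19380 had 128.3 and 86.0 in the mutant on norflurazon, 127.1 and 138.9 in wild type on norflurazon, and 339.9 and 466.9 in the control, and its mutant difference came from replicate 2, at -0.60 against 0.01 in replicate 1.

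The other genes without a stated role follow. AT1G49975 had 56.4 and 45.6 in the mutant on norflurazon, 62.3 and 50.7 in wild type on norflurazon, and 180.9 and 176.3 in the control. AT4G35720 had 22.9 and 21.5 in the mutant on norflurazon, 25.8 and 25 in wild type on norflurazon, and 89.4 and 111.4 in the control. AT3G10120 had 24.5 and 23.5 in the mutant on norflurazon, 26.4 and 22.8 in wild type on norflurazon, and 100.9 and 124.0 in the control. In these 3 the 4 herbicide signals lay close together. AT1G11210 had 11.1 and 25.9 in the mutant on norflurazon, 13.3 and 35.2 in wild type on norflurazon, and 113.9 and 125.8 in the control, so that the replicates differed more than the genotypes. AT2G25625 had 4.0 and 2.1 in the mutant on norflurazon, 2.4 and 2.7 in wild type on norflurazon, and 86.1 and 71.1 in the control. AT1G78995 had 3.5 and 3.4 in the mutant on norflurazon, 1.4 and 2.7 in wild type on norflurazon, and 65.7 and 46.9 in the control. Together with AT5G44440, M10, AT1G47400 and AT2G25890, these last 2 make 6 genes with a signal below 16 on all 4 herbicide arrays, and for 5 of the 6 it was below 5. In the 6 a level on norflurazon is known only as dim, and a small regain could not be seen.

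**Figure D2:**
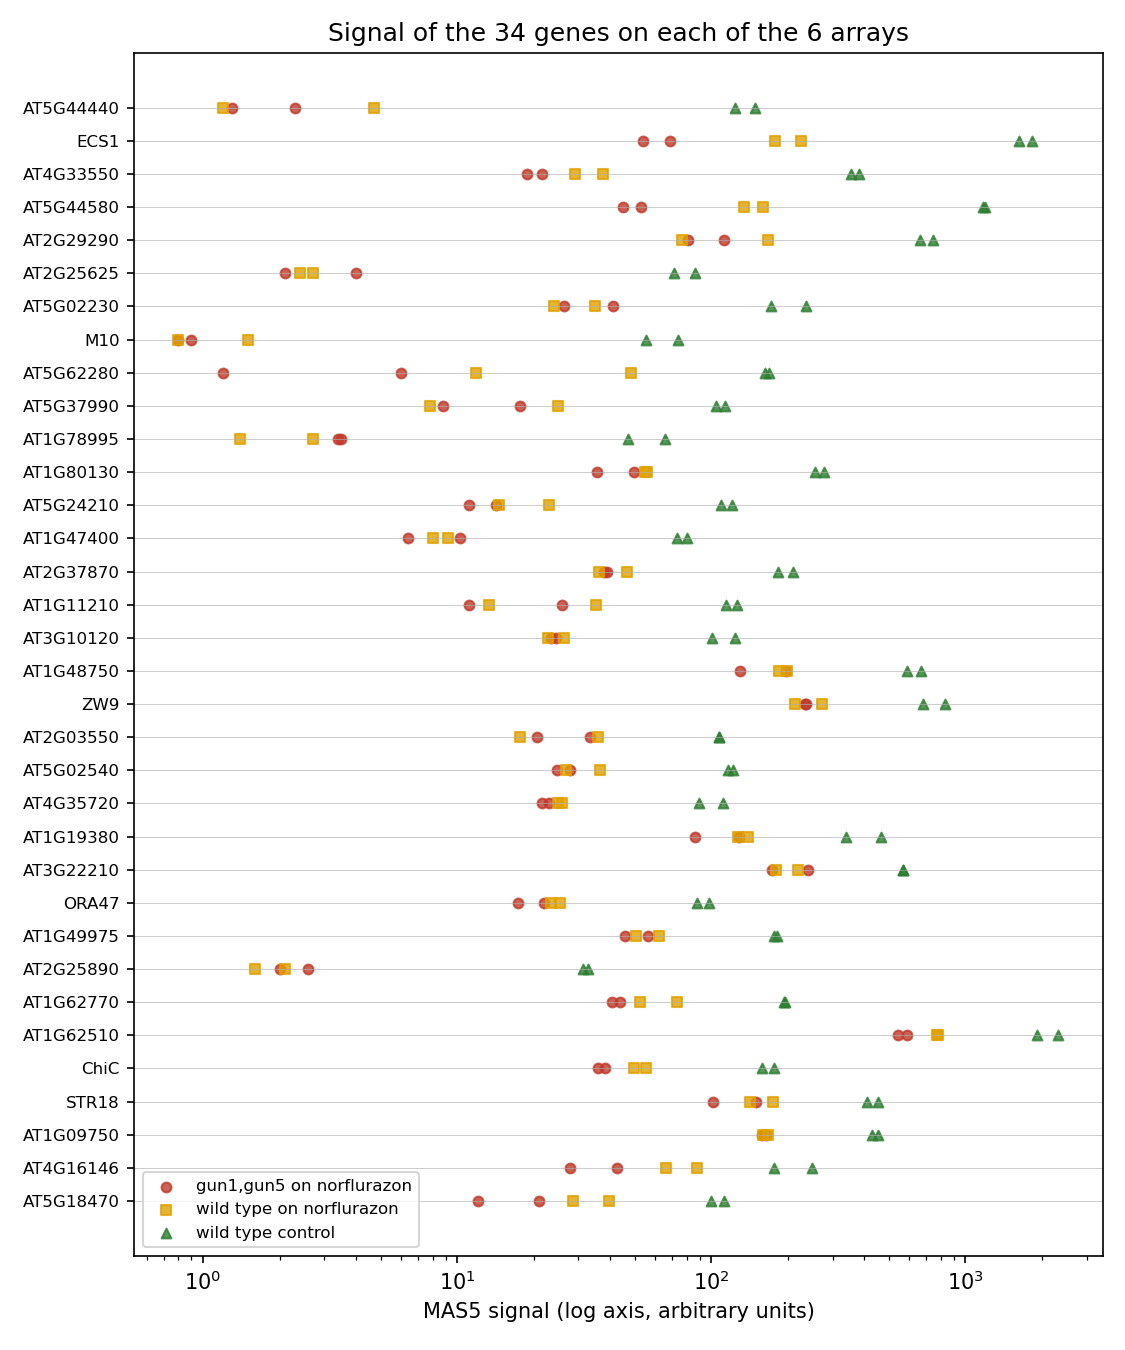
Signal of each of the 34 genes on the 6 arrays, on a log axis, with the deepest fall at the top. Red circles are the 2 mutant arrays on norflurazon, yellow squares the 2 wild type arrays on norflurazon and green triangles the 2 control arrays. Control signals lie to the right of all herbicide signals. In ECS1, AT5G44580, AT5G62280 and AT4G16146 the mutant lies clearly to the left of wild type. For AT5G62280 the signals of the mutant and of wild type replicate 2 are dim, so its gap has no exact size.

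The rule set an upper limit for the mutant and no lower one, so the genes could still differ in how far the mutant lay below wild type. It was below wild type in both replicates in 18 genes, above it in both in 3, and the replicates differed in sign in 13. Among all 13367 probe sets 27.1% were below in both replicates. Over the 189 lowered genes the count was also 18, since the rule placed every such gene among the 34. The 3 above in both were AT5G02230, AT1G78995 and AT2G25890, of which AT1G78995 and AT2G25890 were dim on every herbicide array, so that their excess has no order. In 5 genes the mutant was at least 0.5 below wild type in each replicate. The share of all probe sets at this cut was not taken, so nothing is read from the count. For ECS1 the differences were -1.50 in replicate 1 and -1.47 in replicate 2, for AT5G44580 -1.35 and -1.31, for AT4G16146 -0.91 and -0.82, and for AT5G18470 -0.67 and -0.59. AT5G62280 was the fifth, with -1.55 in replicate 1 and -0.70 in replicate 2, and its mutant signals were dim. Mutant signals were wholly below wild type signals on norflurazon in 13 of the 34 genes, against 18.1% of all 13367 probe sets. The rule used this contrast and left out genes with the mutant above its limit, which raises both shares in the 34. They are given as a description, and nothing is read from them. The genes differed little between replicates in the control (standard deviation of the replicate 1 minus replicate 2 difference 0.216 on the log2 scale), more in the mutant (0.303) and most in wild type on norflurazon (0.407). Over all 13648 tested probe sets these values were 0.215 in the control, 0.383 in the mutant and 0.50 in wild type on norflurazon. The 2 sets are unlike, since 6 of the 34 genes were too dim for the filter that the tested probe sets had passed. The rule also set limits on the 34 in each replicate, so nothing is read from the smaller spread.

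**Figure D3:**
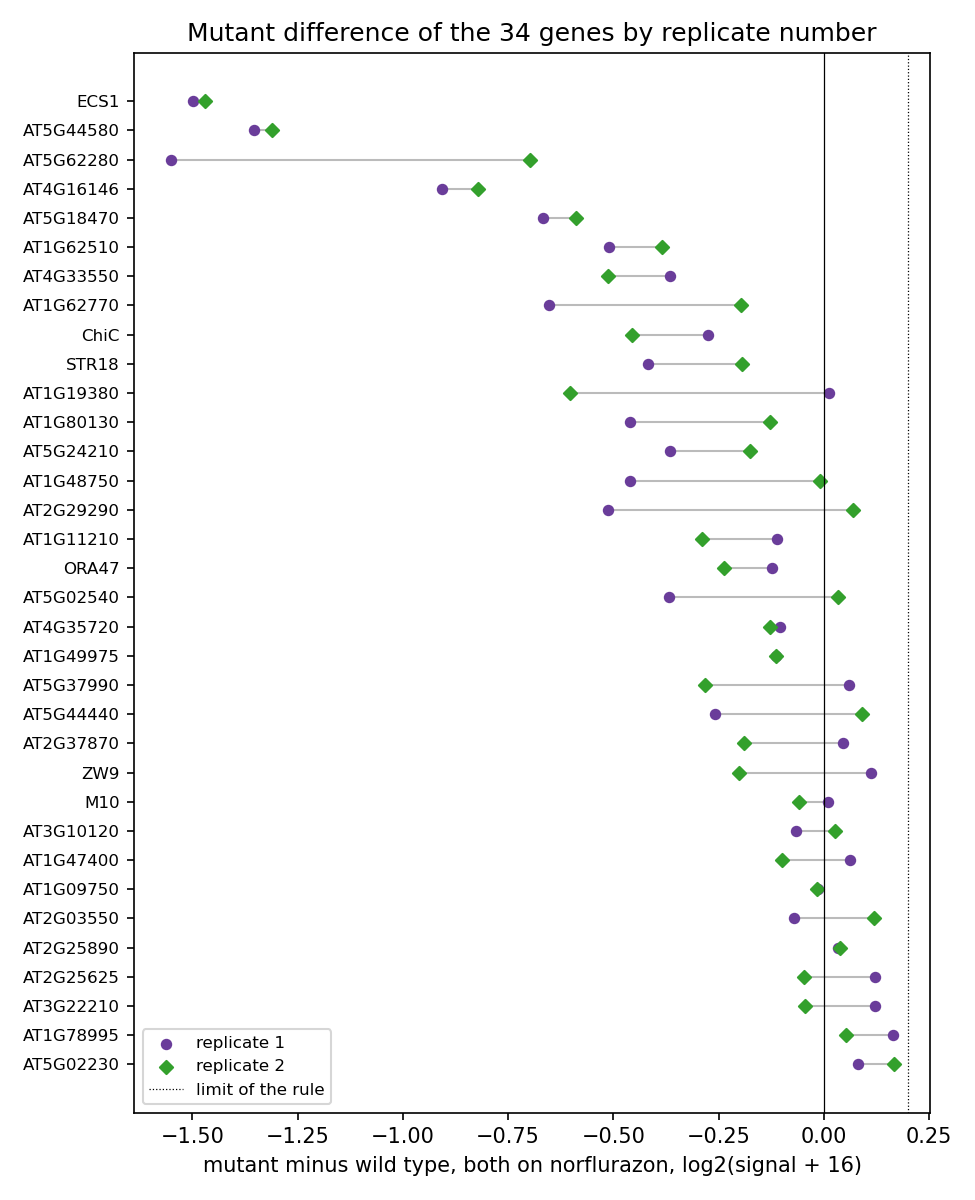
Mutant minus wild type, both on norflurazon, for the 34 genes on the log2(signal + 16) scale, in replicate 1 (purple circles) and replicate 2 (green diamonds). The dotted line is the limit of 0.2 that the rule set. At the top, ECS1 and AT5G44580 lie below -1.3 in both replicates, and AT5G62280 spans -1.55 to -0.70.

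The control level and the annotation of the 34 genes were set beside those of the 130 regained genes. The control signal entered the rule through the fall, which both groups had passed, and the annotation did not enter it. The limit on the mutant, which separated the groups, was set on a log2 scale that understates changes of dim genes. The signal in wild type on norflurazon had a median of 33.65 in the 34 genes and 91.1 in the regained genes. A dim gene could thus stay under the limit more easily. How much of the difference in control signal the rule itself made was not tested. Signals of different probe sets are not transcript levels on a shared scale. As signals, the 34 genes were dimmer in the control, with a median of 172.7 (quartiles 107.7 and 424.1), against 386.2 (quartiles 194.7 and 699.4) in the regained genes. Over all 13367 probe sets the median control signal was 35.6. Their falls in wild type were of like size, with a median of -1.65 against -1.81. They were also shorter: the RefSeq gene length had a median of 1317 bases (range 544 to 2646) against 1793 in the regained genes and 2122 over all 13367 probe sets. Genes under 1000 bases made up 32.4% of the 34, 9.23% of the regained genes and 12.9% of all. A single RefSeq transcript was annotated for 73.5% of the 34, 56.9% of the regained genes and 61.7% of all. All 34 were annotated as protein-coding. These are descriptions of gene groups of unequal size, and no test was made over genes.

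**Figure D4:**
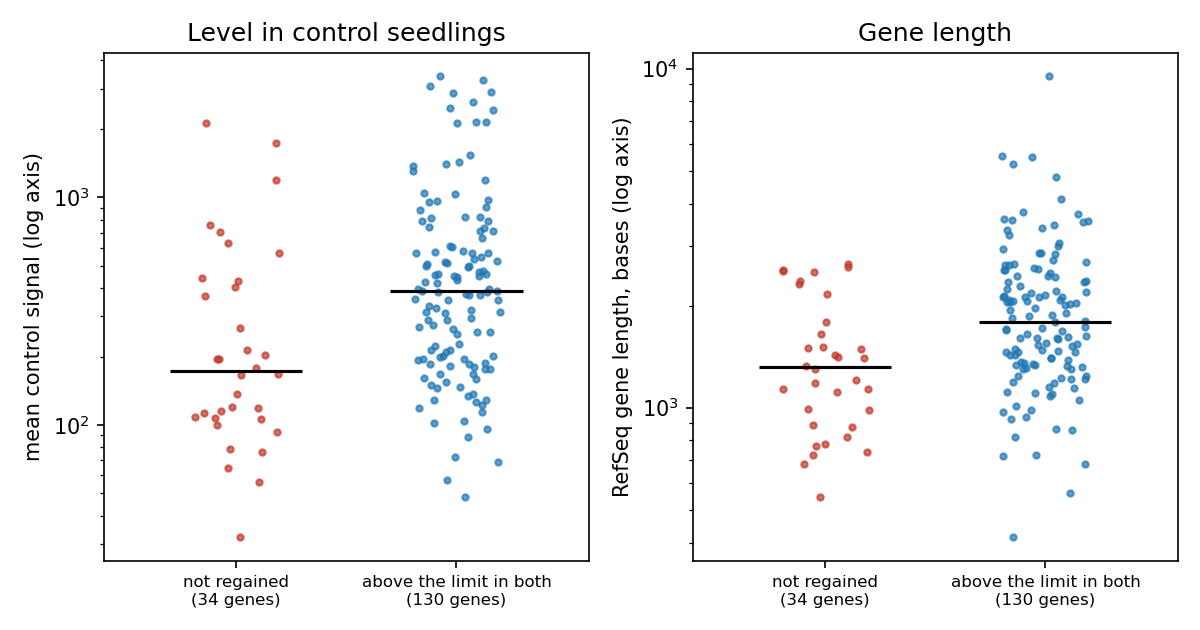
Mean control signal (left) and RefSeq gene length in bases (right), both on log axes, for the 34 genes and for the 130 regained genes. Each point is a gene and each black line a median, 172.7 against 386.2 for the signal and 1317 against 1793 bases for the length. The clouds overlap widely in both panels.

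The genes were spread over the genome, with 13 on chromosome 1, 6 on chromosome 2, 2 on chromosome 3, 4 on chromosome 4 and 9 on chromosome 5. Chromosome 3 held 5.88% of them against 20.5% of all 13367 probe sets, and chromosome 1 held 38.2% against 25.8%. No 2 of them were direct neighbours. Counted in annotated genes, not in bases, the fewest between any pair were 28, for AT2G25625 and AT2G25890, followed by 29 for AT5G44440 and AT5G44580. Every gene was represented by a single named probe set, so no second measurement of a locus was at hand.

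Gene symbols and synonyms were searched for 13 classes of words, among them photosynthesis and chlorophyll, carbohydrate, cell wall, lipid, transport and transcription. Of the 34 genes 0 matched any. Of all 13367 probe sets 96.7% matched none either, so nothing is read from this count. The words for photosynthesis and chlorophyll matched 15 of the 130 regained genes and 19 of all 13367 probe sets. Few names were informative, since a symbol other than the locus was given for 6 of the 34, 25 of the 130 and 11.1% of all, so an unmatched gene may still belong to a class. Of 7 locus lists none held any of the 34. Of 3 tested antenna genes 3 were called lower on norflurazon in wild type, with a median of -2.12, and 2 were called higher in the mutant than in wild type on norflurazon. Of 3 tested starch and maltose genes 2 were called lower on norflurazon in wild type, and 0 were called in either direction in the mutant against wild type, where their median was -0.05. Of 3 tested sulfate assimilation genes 1 was called higher and 0 lower on norflurazon in wild type. The lists for glucosinolates, flavonoids and the clock had 1 tested gene each, of which the glucosinolate gene was called higher on norflurazon in wild type, and the nitrate list had 0.

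A limma model over all 6 arrays was fitted to 13648 probe sets that passed a filter on dim signals, with p-values adjusted by the Benjamini-Hochberg method at 0.05. Of the 34 genes 28 passed the filter, and the other 6 are the dim ones listed above. All 28 were called lower on norflurazon in wild type, where 10.3% of the tested probe sets were called lower, and all 28 were called lower in the mutant on norflurazon than in the control, where 10.7% were. The mutant was called lower than wild type on norflurazon in 2 of the 28, ECS1 and AT5G44580, where 1.08% of the tested probe sets were called lower. The rule used each of these contrasts, so nothing is read from the counts. Without mutant replicate 2 neither ECS1 nor AT5G44580 was called, at 11 probe sets called lower in the mutant instead of 147. Without control replicate 1 the norflurazon contrast in wild type called 27 of the 28 and 498 probe sets in all, and without control replicate 2 it called 23 of the 28 and 558 in all, against 1400 with all arrays. Without either control replicate the mutant on norflurazon against the control called 26 of the 28, leaving out AT2G03550 and AT3G22210, and 364 and 372 probe sets in all, against 1463 with all arrays.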

How the data were processed

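The deposited table holds MAS5 intensity values on a linear scale for 22810 probe sets on 6 arrays. MAS5 is named in the submitters' processing notes, and its version, the background settings and the detection calls are not given in the sources used here. Names came from GEO's platform annotation, brought up to date by gene ID through RefSeq's genes for TAIR10.1. A single gene was given for 13513 probe sets and several for 503, and the other 8794 stay unnamed. A locus was found for 13436 of the 13513, and 13367 of these probe sets named a nuclear locus, 13217 distinct loci in all.

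Signals were taken to log2(signal + 16), a scale that understates changes of dim genes. The 34 genes, the lists and the tests were chosen with earlier results of these data known. For the calls, limma 3.58.1 in R 4.3.3 (lmFit, eBayes with an intensity trend, 1 mean per group, 3 residual degrees of freedom) was fitted to the 13648 probe sets at or above the 40th percentile of mean log2 signal, 64 control probe sets being left out. SE values come from this fit, which pools the spread of all groups. The model and the rule were run on simulated arrays with planted changes, as a check of the code. The simulated noise was independent between arrays, and for the rule it was smaller than the spread in these data. These runs therefore do not show how well either works on these data. The genes printed include those of a rule on the largest falls, the extreme mutant differences, the brightest controls and the thresholds, and all others as members. Promoter and protein features were not analysed here. Alternatives were other pseudocounts, scalings, limits, filters, pairings and the omission of arrays. Precision is limited by there being 2 arrays per group. No 2 arrays held the same values, with at most 273 equal signals between any pair.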

Additional observations from a re-analysis of the deposited data

How the results depend on the processing

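The set of 34 genes depended on the limits and on the pseudocount. It held 83 genes with a pseudocount of 1, 28 of them shared, and 11 with a pseudocount of 64, 9 of them shared. It held 58 genes at a fall of 1.0, 16 at a fall of 1.5, 18 with the mutant at most 0 above wild type and 54 with the mutant at most 0.5 above. Applied to a single replicate number, the rule gave 84 genes without replicate 1 and 67 without replicate 2. Without a replicate block, on group means, it gave 69 genes, and over every pairing of arrays 25. Quantile scaling gave 34 genes and equal medians 32, with 32 shared in each, and the filter on dim probe sets left 28.

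The median of norflurazon minus control in wild type was -2.185 with a pseudocount of 1, -1.11 with 64 and -1.60 with equal medians, and lay between -1.66 and -1.65 when a replicate number was left out. The median of mutant minus wild type was -0.25, -0.081 and -0.14 under the same settings, and -0.15 to -0.12 by replicate number. The median of the mutant on norflurazon minus the control was -2.57 with a pseudocount of 1 and -1.23 with 64. It lay between -2.07 and -1.82 by replicate number. No median changed sign. The genes were chosen on these differences, which left little room for a change of sign in the medians against the control, so this is no check on them.

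Without 1 array, the probe sets called lower ranged from 498 to 1639 for norflurazon in wild type, from 364 to 2046 for the mutant against the control and from 11 to 373 for the mutant against wild type. Against 1463, the mutant and control comparison called 364 without control replicate 1, 372 without control replicate 2, 860 without mutant replicate 1 and 634 without mutant replicate 2. Against 147, the mutant and wild type comparison called 33 without either control replicate, 55 without mutant replicate 1, 11 without mutant replicate 2, and 373 without wild type norflurazon replicate 2. It called 43 with no filter. With the replicate number as a block the counts were 1617, 1700 and 216, each within 1.5 times of the fit without it, and AT4G16146 joined ECS1 and AT5G44580 among the genes called lower in the mutant than in wild type on norflurazon. Deviations from the group means of arrays with the same number had correlations of 0.48 between the herbicide groups and of 0.08 and 0.07 between these and the control, so the numbers do not pair the samples throughout. The cause of these shifts was not tested. Promoter and protein features, and the alternative planned for them, were not run.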

Other observations

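Of the 13 alternatives tried for the rule, 5 only loosen it or use part of its conditions, so that no gene could drop out. Of the 34 genes, 5 met the rule under all of the other 8, namely the lipid transfer family genes AT1G48750 and AT4G33550, the cell wall protein gene ECS1, and AT1G80130 and AT5G44580. AT5G24210 and AT5G62280 dropped out only with a pseudocount of 64. AT2G03550, AT2G25890 and AT5G02230 met it under the fewest, 3 of these 8.

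Probe sets that the annotation used here does not name were not eligible. Of these, 247 met the first condition and 52 met both, and 2 probe sets that name several genes met both as well.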
